A study of Mus musculus with 16 samples.

Results

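The genes described here encode enzymes and subunits that write, erase or read histone and DNA methylation or that move nucleosomes. They were chosen by symbol: protein-coding genes of the mm10 RefSeq table whose symbol starts with Kmt, Kdm, Setd, Smarc, Dnmt or Tet and carries a number, or with Chd, Ing or Arid followed by a number. The rule uses no measured value, though it was chosen with earlier results of these data known. It took 81 of 21883 protein-coding genes on chromosomes 1 to 19, X and Y. The mark was beta-hydroxybutyrylation of histone H3 lysine 9 (H3K9bhb), mapped by ChIP-seq (sequencing of DNA pulled down with an antibody to the mark) from the occipital cortex of mice of the C57BL/6J strain aged 35 postnatal days. One group was fasted for 48 h and the other was fed ad libitum, and each group has 4 immunoprecipitated and 4 input libraries. The tissue is a homogenate, so regions cannot be assigned to a cell type, and the sources used here do not say whether the 4 libraries of a group came from separate animals. Of 19 genes fixed as markers of cortical cell types and other tissues, 1 had a region enriched in fasted mice at an end. This was the oligodendrocyte gene Mbp, and the other 18 had none. The share at an end was 5.26%, against 11.9% of all protein-coding genes. A list of regions that differ between groups does not give the level of the mark at such markers, so the dissection was not checked.

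H3K9bhb is a histone acylation whose acyl group comes from beta-hydroxybutyrate, a ketone body that the liver releases in fasting. Methylation of histone lysines is placed by SET domain enzymes and removed by the KDM demethylases, and DNA methylation is placed by DNMT enzymes and oxidised by TET enzymes. SWI/SNF, ISWI and CHD complexes use ATP to move or evict nucleosomes, and mutations in several of these genes cause human neurodevelopmental disorders.

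The deposited values are 2 lists of regions, each region with the authors' own likelihood ratio on a log scale of unstated base (log-LR). The list enriched in fasted mice held 8404 regions, whose log-LR had a median of 4.96 and a lowest value of 3.11. The list enriched in ad libitum mice held 1 region, which touched none (0) of the 81 genes. No value per library is given, so the depth is unknown, no spread between mice can be shown, and no comparison below carries a test.

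A fasting-enriched region overlapped the 1 kb on either side of a gene end in 23 of the 81 genes (28.4%), against 11.9% of all protein-coding genes. A region overlapped the gene body in 36 (44.4%), against 16.4% of all. These 36 include all 23 with a region at an end, so 36 members had a region in either place (18.1% of all genes did), 13 had one in the gene body only, and 45 had none. The 36 genes held 48 regions covering 12.1 kb in all. More than 1 region at the ends was seen in 5 members, Setd5, Setd1b, Smarca5, Smarcd1 and Kmt5b, or 6.17% of the set against 0.969% of all genes. Among genes with any region at an end, that is 21.7% of members and 8.13% of all.

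The members' regions had moderate log-LR values. The 29 regions at gene ends ran from 3.62 to 9.63 with a median of 5.47, beside a median of 4.94 over 2473 regions at the ends of all protein-coding genes. The share above the upper quartile of the whole list was 20.7% for these 29 and 21.2% for the 2473. The 19 regions in gene bodies only had a median of 4.81, beside 4.97 for all such regions. Their median width was 161 bp, narrower than the 259 bp of the members' regions at gene ends, and these compare with 196 bp and 205 bp for all protein-coding genes. When only regions above the upper quartile of log-LR were counted, 4.94% of members and 4.36% of all genes had one in the body, and the distance to the background was then small.

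The promoters printed here are those in which a fasting-enriched region reached into the 250 bases before a start in the RefSeq promoter table used here, because they show on which side of the start the region lay. There are 5 such members in the promoter table, which is on GRCm38.p6, the build called mm10. Each sequence runs 5′ to 3′ in the direction of the gene and ends at the last base before the start. Capitals mark the bases inside the fasting-enriched region. Tet1, which had no region, is added after Tet2 for comparison within the TET family.
Tet2, minus strand, chr3:133544391-133544640: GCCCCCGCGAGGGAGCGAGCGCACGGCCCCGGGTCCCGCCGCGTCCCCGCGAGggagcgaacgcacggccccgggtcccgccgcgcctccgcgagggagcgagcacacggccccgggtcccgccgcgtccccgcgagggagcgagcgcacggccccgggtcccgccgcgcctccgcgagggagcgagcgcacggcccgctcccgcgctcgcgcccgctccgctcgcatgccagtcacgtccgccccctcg
Tet1, minus strand, chr10:62887325-62887574: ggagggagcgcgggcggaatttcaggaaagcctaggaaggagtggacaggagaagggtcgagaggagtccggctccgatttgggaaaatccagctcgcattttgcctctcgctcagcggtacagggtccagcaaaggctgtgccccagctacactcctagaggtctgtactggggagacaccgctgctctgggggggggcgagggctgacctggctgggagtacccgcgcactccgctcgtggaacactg
Smarca5, minus strand, chr8:80739460-80739709: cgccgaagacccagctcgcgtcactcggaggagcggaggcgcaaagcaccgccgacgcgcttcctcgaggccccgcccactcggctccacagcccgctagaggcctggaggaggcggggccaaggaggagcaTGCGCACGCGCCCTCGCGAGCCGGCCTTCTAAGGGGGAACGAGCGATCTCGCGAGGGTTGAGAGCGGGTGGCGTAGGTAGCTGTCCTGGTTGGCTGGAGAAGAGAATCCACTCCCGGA
Smarcd1, plus strand, chr15:99702037-99702286: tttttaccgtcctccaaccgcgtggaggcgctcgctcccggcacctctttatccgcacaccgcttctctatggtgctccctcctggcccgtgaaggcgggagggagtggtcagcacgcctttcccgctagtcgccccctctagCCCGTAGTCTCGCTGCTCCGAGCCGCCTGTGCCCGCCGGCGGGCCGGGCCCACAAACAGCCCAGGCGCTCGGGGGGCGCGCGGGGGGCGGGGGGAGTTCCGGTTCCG
Chd8, minus strand, chr14:52257761-52258010: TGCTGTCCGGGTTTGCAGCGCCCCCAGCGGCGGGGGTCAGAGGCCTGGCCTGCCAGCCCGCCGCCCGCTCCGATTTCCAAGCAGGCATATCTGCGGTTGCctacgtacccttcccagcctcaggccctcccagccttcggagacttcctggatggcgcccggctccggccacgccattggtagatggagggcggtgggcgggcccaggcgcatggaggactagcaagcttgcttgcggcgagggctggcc
Kmt5b, plus strand, chr19:3767639-3767888: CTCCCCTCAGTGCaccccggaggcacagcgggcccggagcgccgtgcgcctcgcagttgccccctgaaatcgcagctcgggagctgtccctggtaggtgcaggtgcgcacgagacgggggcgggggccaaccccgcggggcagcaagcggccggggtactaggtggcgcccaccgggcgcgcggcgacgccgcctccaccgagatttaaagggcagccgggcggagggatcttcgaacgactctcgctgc

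In Smarca5 and Smarcd1 the capitals, 118 and 107 bases, run up to the start, so the region crosses it. In Chd8, Tet2 and Kmt5b they are the 100, 53 and 13 bases farthest from the start, so the region lies upstream of the start printed. In each of these genes that start lies inside the annotated gene, and the region overlaps the gene. The Kmt5b region lies 140 bp downstream of another of its listed starts. The 250 bases of Tet2 hold 51 CG dinucleotides and those of Tet1 hold 15. The Tet2 sequence also contains a stretch of 43 bases that occurs 2 times without overlap, the longest such repeat among the members' promoters searched.

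**Figure D1:**
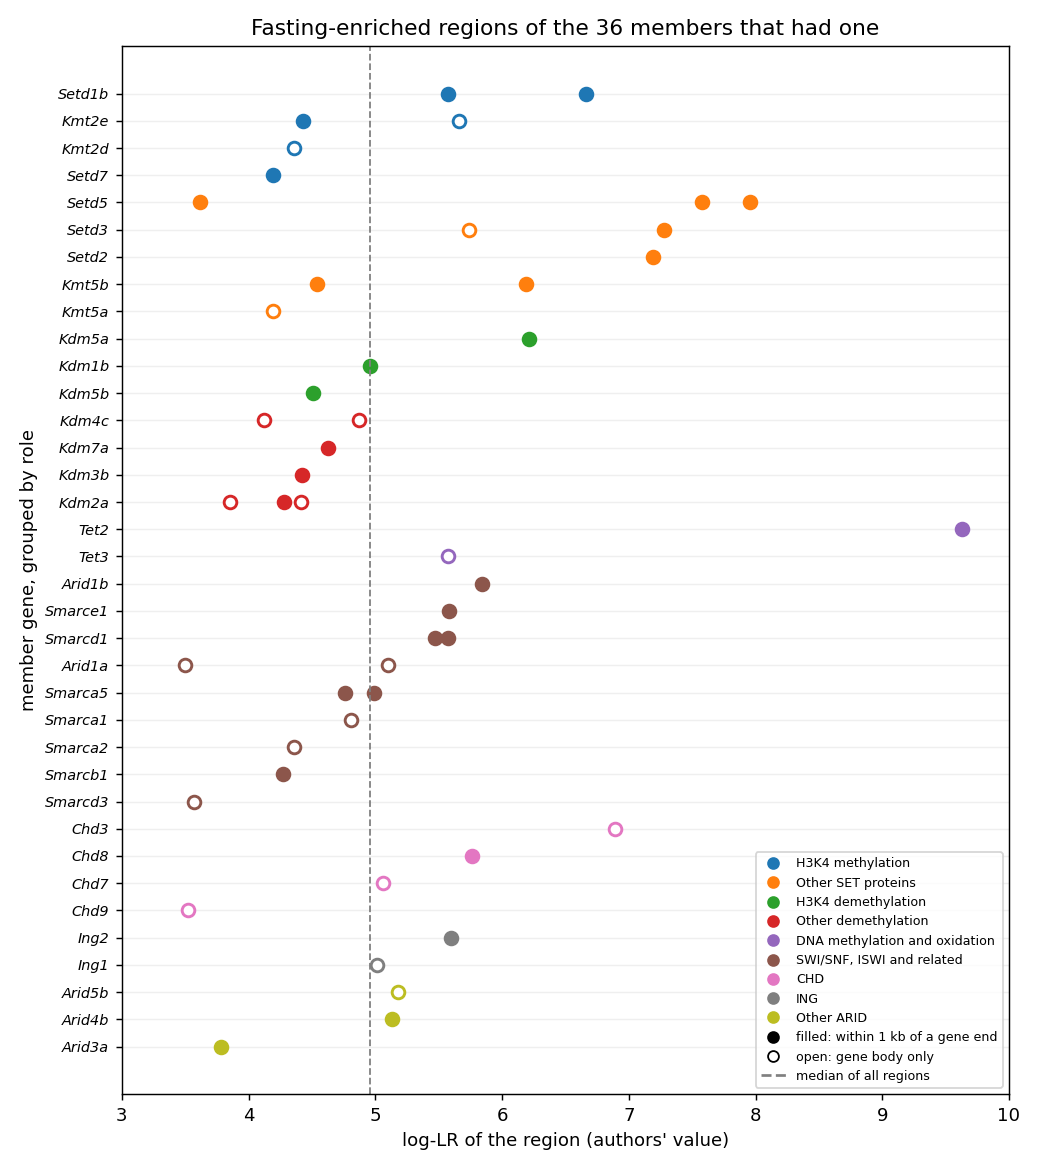
Each point is a fasting-enriched region of a member gene (rows, coloured by role), placed on the horizontal axis by the authors' log-LR. Filled points overlap 1 kb around a gene end and open points lie in the gene body only. The Tet2 region, at 9.63, is the highest, and the regions of the KDM genes other than H3K4 demethylases all lie below the list median of 4.96 (dashed line).

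Among the 8 genes assigned to H3K4 methylation, 3 had a region at an end (37.5%, against 11.9% of all genes) and 1 in the body only. Setd1b, a catalytic subunit of the SET1 complex that trimethylates H3K4, had 2 regions at its lower-coordinate end on chromosome 5. The stretch from 123141157 to 123141298 (log-LR 6.66) was outside Setd1b, inside the neighbouring gene Rhof. The region at 123142189 to 123142511 (log-LR 5.57) lay inside Setd1b, and both fell within 1 kb of an end of Rhof. They were the only members' regions in an array, meaning a run of at least 5 regions spaced by 20 kb or less. Kmt2e, an MLL family gene whose SET domain is not known as an active H3K4 methyltransferase, had a region of 152 bp centred 1064 bp inside its end (log-LR 4.43) and another of 595 bp farther in (5.66). Setd7, an H3K4 monomethyltransferase that also acts on other proteins, had a region 324 bp downstream of its start (4.19). Kmt2d, an enhancer H3K4 methyltransferase gene, had a body region (4.36), centred 740 bp upstream of its listed start. Kmt2a, Kmt2b, Kmt2c and Setd1a had no region, so each of the pairs Setd1a and Setd1b, and Kmt2c and Kmt2d, held a gene with a region and a gene without.

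The other SET domain proteins held 7 of the 29 regions at gene ends, in 4 of 10 genes (40.0%, against 11.9% of all genes). Their regions had a median log-LR of 6.19. Setd5, a gene linked to intellectual disability whose enzymatic activity is disputed, had 3 regions at its outer end on chromosome 6. These lay at 113076205 to 113076657 (log-LR 7.96), 113076950 to 113077230 (7.58) and 113077702 to 113077832 (3.62). The first and second lie before the annotated gene and the last lies inside it. The listed start of Setd5 is 27168 bp farther in than the nearest of them, so its printed CG count and start distance do not describe this end. Setd2, the enzyme that trimethylates H3K36, had a region of 295 bp with a log-LR of 7.19, centred 240 bp downstream of its start. Setd3, which methylates a histidine of actin, had a region of log-LR 7.28 that also fell within 1 kb of an end of Ccnk, and a weaker one (5.74) 5054 bp inside its other end. Kmt5b, which places di- and trimethylation on H4K20, had regions 140 bp (4.54) and 474 bp (6.19) downstream of its nearest listed starts. Kmt5a, the H4K20 monomethyltransferase, had a body region (4.19) that lay 601 bp downstream of a start inside the gene. Setdb1, Setdb2, Setd4, Setd6 and Kmt5c had none.

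Of the 6 genes for H3K4 demethylases, 3 had a region at an end, against 11.9% of all genes. Kdm5a, an H3K4 demethylase, had a region of 128 bp whose centre was 12 bp from its gene end (log-LR 6.21) and which overlapped Ccdc77 as well. Its paralogue Kdm5b had a region 293 bp downstream of its start (4.51), inside the span of Mgat4e too. Kdm1b, a flavin-dependent H3K4 demethylase, had a region 356 bp downstream (4.96) that was also within 1 kb of an end of Tpmt. Kdm1a, the X-linked Kdm5c and the Y-linked Kdm5d had none. The sex of the mice is not given here, and without a Y chromosome Kdm5d could have no region. Only 0.725% of 966 protein-coding genes on X had a region at an end, so the lack of one at Kdm5c is the usual case for that chromosome.

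The 12 other demethylase genes act on H3K9, H3K27 or H3K36 or are grouped with those that do. Of these 12, 3 had a region at an end, against 11.9% of all genes. Kdm7a, an H3K9 and H3K27 demethylase, had a region 530 bp downstream of its start (4.63), and Kdm3b, an H3K9 demethylase, had a region 195 bp from its gene end (4.42). Kdm2a, which binds unmethylated CpG and demethylates H3K36, had 3 regions within its outermost stretch, with log-LR values of 4.28, 4.41 and 3.85, all inside the span of 9430078G10Rik. Kdm4c, an H3K9 and H3K36 demethylase, had 2 body regions, 255 bp (4.87) and 569 bp (4.12) downstream of a start that lies inside the gene. Kdm2b, Kdm3a, Kdm4a, Kdm4b, Kdm4d, Kdm6a, Kdm6b and Kdm8 had none.

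Among the DNA methylation genes, both regions were at TET genes and none at a DNMT gene. Tet2, which oxidises 5-methylcytosine, had the highest log-LR of all members, 9.63, in a region of 570 bp at chromosome 3, 133544588 to 133545157. That value was at percentile 93.5 of the list and the width at percentile 97.2. The region spans the outer gene end and lies 482 bp upstream of the listed start, as the capitals at the 5′ side of the printed sequence show. Tet3 had a region of 167 bp in the body (5.57), centred 1108 bp inside its outer end. Tet1, the maintenance enzyme gene Dnmt1, the de novo enzyme genes Dnmt3a and Dnmt3b, and Dnmt3l, which encodes a cofactor without catalytic activity, had none. The 7 genes gave 1 with a region at an end, or 14.3%, near the 11.9% of all genes.

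The SWI/SNF, ISWI and related genes gave 5 of 16 with a region at an end (31.2%, against 11.9% of all genes) and 4 more in the body only. With either place counted the share was 56.2%, against 18.1% of all genes. That comparison is not matched for length, with a median of 75.6 kb in this group and 17.2 kb over all genes. Smarcd1, a SWI/SNF subunit that links the complex to transcription factors, had a region across its start (log-LR 5.47) and another 490 bp downstream (5.57). Smarca5, the ISWI ATPase SNF2H, showed the same layout, with a region centred 56 bp before its start (4.76) and another 736 bp after it (4.99). Arid1b, a SWI/SNF subunit gene mutated in Coffin-Siris syndrome, had the widest region of any member, 656 bp with a log-LR of 5.84, 444 bp downstream of its start. Smarce1 (5.58) and Smarcb1 (4.27), SWI/SNF subunit genes, each had 1 region, 834 and 320 bp inside a gene end.

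Arid1a, the paralogue of Arid1b, had 2 regions in the body, 286 bp (log-LR 5.10) and 1562 bp (3.50) downstream of a listed start that lies inside the gene. Smarca2, a SWI/SNF ATPase gene, had a body region 1890 bp downstream of its start (4.36), while its paralogue Smarca4 had none. Smarcd3 had a region 2849 bp upstream of a start inside the gene (3.57). The X-linked ISWI ATPase gene Smarca1 had a region 25018 bp from its start (4.81). It was the only one of 3 X-linked members with a region, and none of the 3 had one at an end. Smarca4, Smarcc1, Smarcc2, Smarcd2, Smarcad1, Smarcal1 and Arid2 had no region.

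Of the 10 CHD remodeller genes, 1 (10%) had a region at an end, near the 11.9% of all genes, and 3 more had a body region only. With any region counted, the share was 40.0%, against 18.1% of all genes. That comparison is not matched for length, and the CHD genes have a median length of 63.8 kb against 17.2 kb for all. Chd8, an ATPase gene often mutated in autism, had a region of 188 bp (log-LR 5.76) whose centre was 38 bp from the gene end and 244 bp upstream of its listed start. Chd3, an ATPase gene of the NuRD complex, had a region of 121 bp centred 1123 bp inside an end (6.89). Chd7, the gene of CHARGE syndrome, had a region 1662 bp inside an end (5.06). The region of Chd9 (3.52) lay 59.2 kb from the nearer gene end. Chd1, Chd1l, Chd2, Chd4, Chd5 and Chd6 had none.

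The ING proteins read trimethylated H3K4 through a PHD finger within acetyltransferase or deacetylase complexes. Ing2 had a region of 548 bp, 716 bp downstream of its start (log-LR 5.60), and Ing1 had a body region 832 bp downstream of a start inside the gene (5.01). Ing3, Ing4 and Ing5 had none. Among the other ARID genes, Arid4b, which encodes a chromatin-binding protein, had a region 399 bp downstream of its start (5.13) that was also within 1 kb of an end of Ggps1. Arid3a, a transcription factor gene, had a region 276 bp inside an end (3.78). Arid5b had a body region 1558 bp downstream of its start (5.18), and Arid3b, Arid3c, Arid4a and Arid5a had none.

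**Figure D2:**
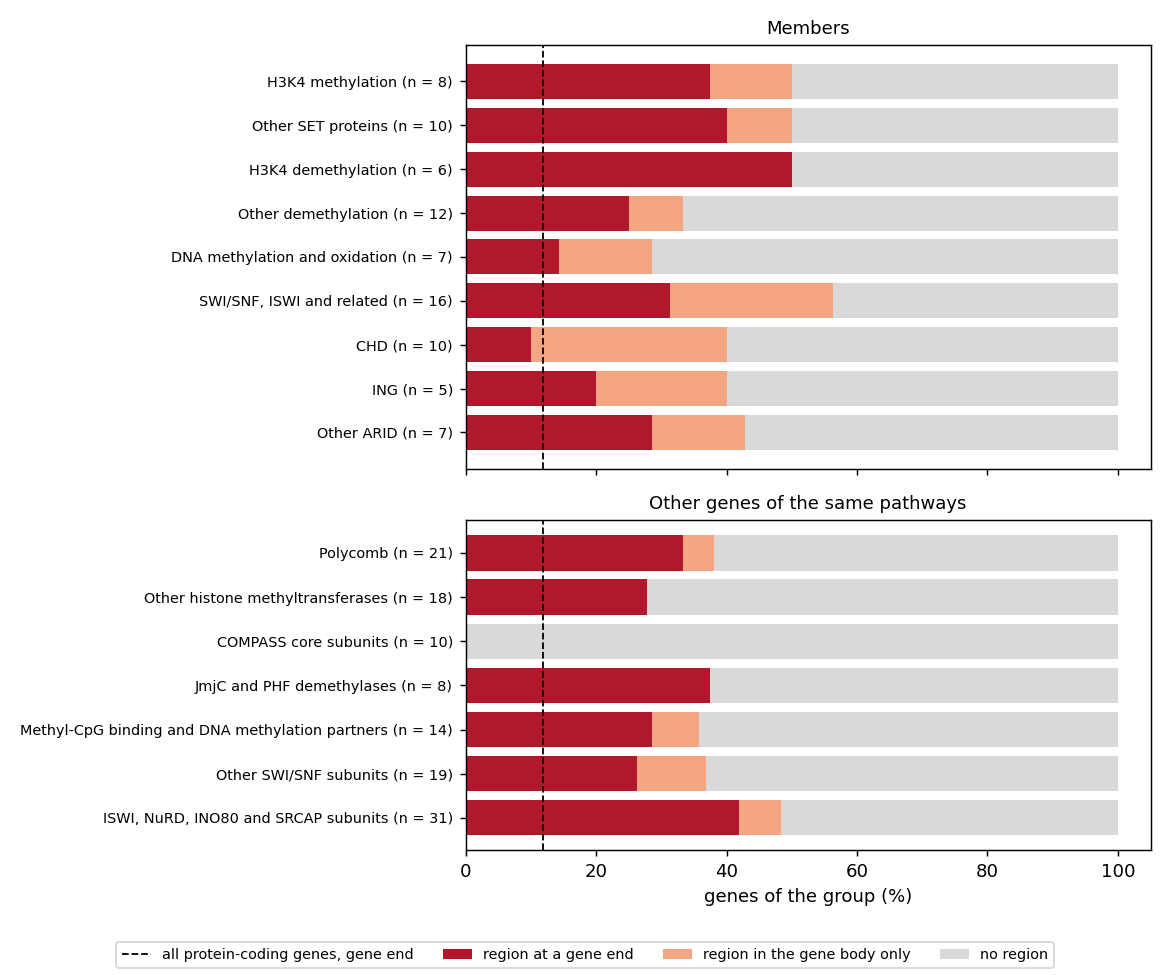
Bars give, for each role group of members (upper panel) and of other genes in the same pathways (lower panel), the percentage of genes with a fasting-enriched region at a gene end, in the gene body only, or nowhere, with the number of genes in brackets. The dashed line is the 11.9% of all protein-coding genes with a region at an end, which only the CHD group and the COMPASS core subunits lie below.

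The other genes of these pathways came from a list of 121 that the symbol rule does not cover. Of these, 37 had a region at an end (30.6%), beside 28.4% of members and 11.9% of all genes. The list was written with earlier results of these data known, so its share is not an independent comparison. Subunits of ISWI, NuRD, INO80 and SRCAP complexes held 13 of 31, led by Mta1 (log-LR 8.60), a NuRD subunit gene whose region lay outside it, and Srcap (7.43), a remodeller ATPase gene. Polycomb genes held 7 of 21, with the ubiquitin ligase gene Rnf2 at 5.71 and Phf1 at 5.62, the latter shared with Kifc5b. Histone methyltransferases of other names held 5 of 18, led by the arginine methyltransferase gene Prmt6 (7.40) and the H3K36 methyltransferase gene Nsd1 (5.64). Demethylases and relatives of other names held 3 of 8, with Hr at 9.53 and Jmjd6 at 3.88.

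For methyl-CpG binding and DNA methylation partners the count was 4 of 14, with Mbd1 at 8.31 and Gadd45a at 6.59. Further SWI/SNF subunits gave 5 of 19, with Bicral at 6.99 in a region outside the gene that was shared with Tbcc, and Brd9 at 5.16, shared with Trip13. The group called COMPASS core subunits, partner proteins of the H3K4 methyltransferases that are not all shared between them, held 0 of 10. None of these genes had a body region either. The background for the counts in this paragraph is 11.9% of all genes at an end, and 18.1% with either place counted. With 10 genes this count of 0 is small, and its difference from that background and from the other groups was not tested.

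Where strand was known, the members' regions at gene ends lay at the starts. The promoter table used here has an entry for 65 of the 81 members, and the starts it gives are called listed starts. Not matched in it were Arid2, Arid3a, Arid4a, Chd1, Chd2, Chd3, Chd7, Kdm2a, Kdm3b, Kdm4b, Kdm5a, Kdm6b, Kmt2b, Kmt2e, Setd1b and Smarce1. Of the 65, 16 had a region at the start side and 0 at the far end, beside 12.7% and 0.698% of 15327 protein-coding genes longer than 2 windows. Taking the listed starts themselves, 20 of 65 (30.8%) had a region within 1 kb, against 13.2% of all 17491 genes with a listed start. These 20 include 5 that the gene-end rule placed in the body, Arid1a, Ing1, Kdm4c, Kmt2d and Kmt5a, and leave out Setd5. Of the other 8 body-only members, 6 had a region centre within 3 kb of a gene end or listed start, and those of Chd9 and Smarca1 lay farther in.

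Most regions sat just downstream of the start. Within 3 kb of a listed start the members gave 28 region and gene pairs, of which 22 (78.6%) were downstream, with a median distance of 340 bp. All protein-coding genes gave 2820 pairs, 75.9% downstream, with a median of 252 bp. The share between 250 and 1000 bp downstream was 57.1% for members and 43.8% for all, and the share within 250 bp of the start was 21.4% and 32.9%. Both sets therefore peaked on the gene side of the start.

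**Figure D3:**
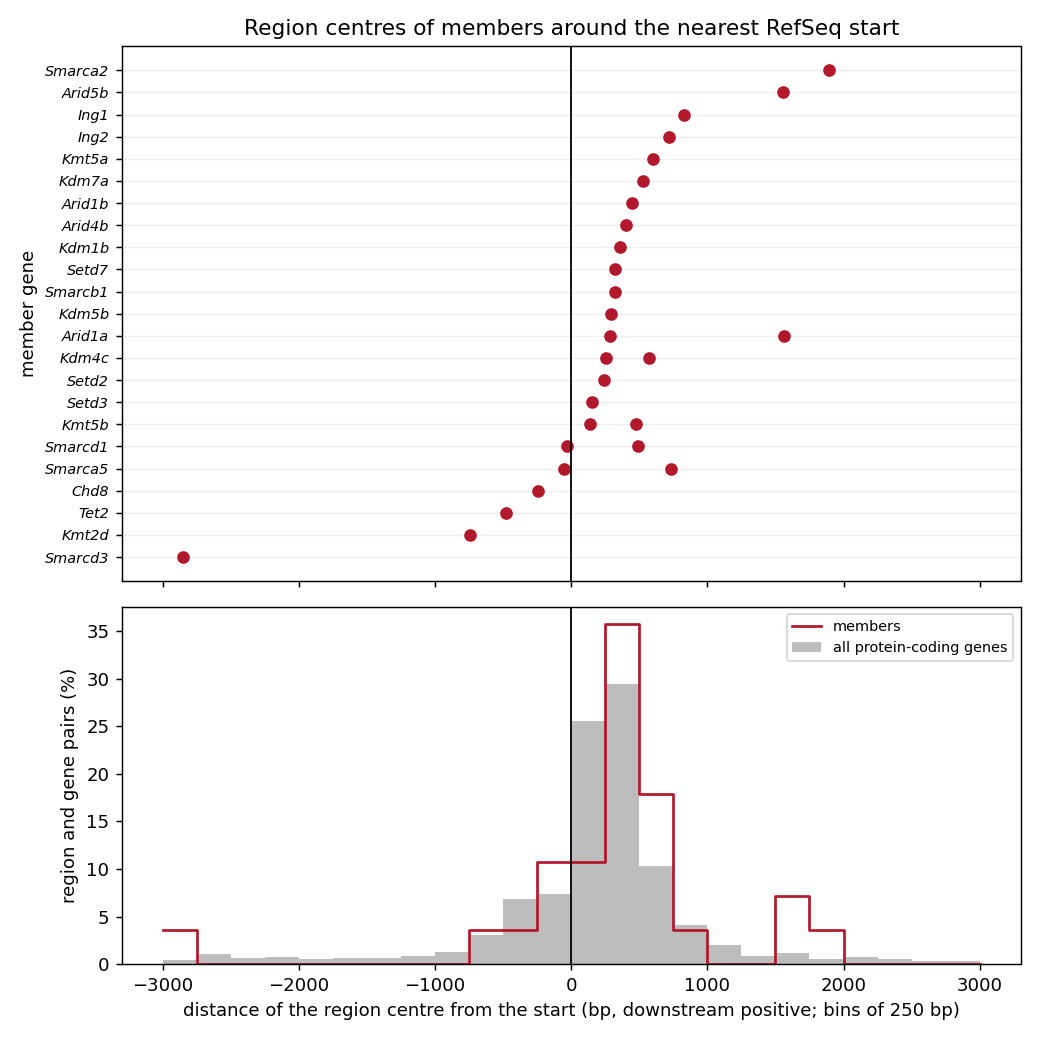
The upper panel places each region centre of a member by its distance in bp from the nearest RefSeq start, with downstream positive. The lower panel gives the percentage of region and gene pairs in bins of 250 bp for members (red line, 28 pairs) and all protein-coding genes (grey bars, 2820 pairs), and both peak between 250 and 500 bp downstream.

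Gene length and promoter composition moved with the counts. Members are long, with a median of 50.9 kb against 17.2 kb for all protein-coding genes. Among genes of 20 to 100 kb, 19 of 54 members (35.2%) had a region at an end against 15% of all, and 26 (48.1%) had one in the body against 20.4%. Under 20 kb the counts were 2 of 11 at an end, against 9.01% of all, and 3 of 11 in the body, against 8.92%. Over 100 kb the members were near other genes of that length, with 2 of 16 at an end (12.5%) against 16.4%, and 7 of 16 in the body (43.8%) against 40.7%.

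Members also have CG-rich promoters, with a median of 28 CG dinucleotides in the 300 bases around the start, against 15 for all genes with a listed start. For a gene with several listed starts the highest CG count was taken, here and in the classes below. Regions at gene ends were found in 1.5% of all genes with under 5 CG, in 7.25% of those with 5 to 14 and in 20.1% of those with 15 or more. Of the 55 members with 15 or more, 14 (25.5%) had a region at an end, so the distance to the background was smaller within that class than over all genes. Within genes that also measure 20 to 100 kb, the counts were 11 of 36 members (30.6%) and 21.3% of all. With 5 to 14 CG the count was 1 of 8 members, and under 5 CG it was 1 of 2, namely Setd5. The 16 members without a listed start enter none of these classes, and 7 of them (43.8%) had a region at an end against 11.3% of all such genes. The part of CG content and length in the members' share was not tested beyond these classes.

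**Figure D4:**
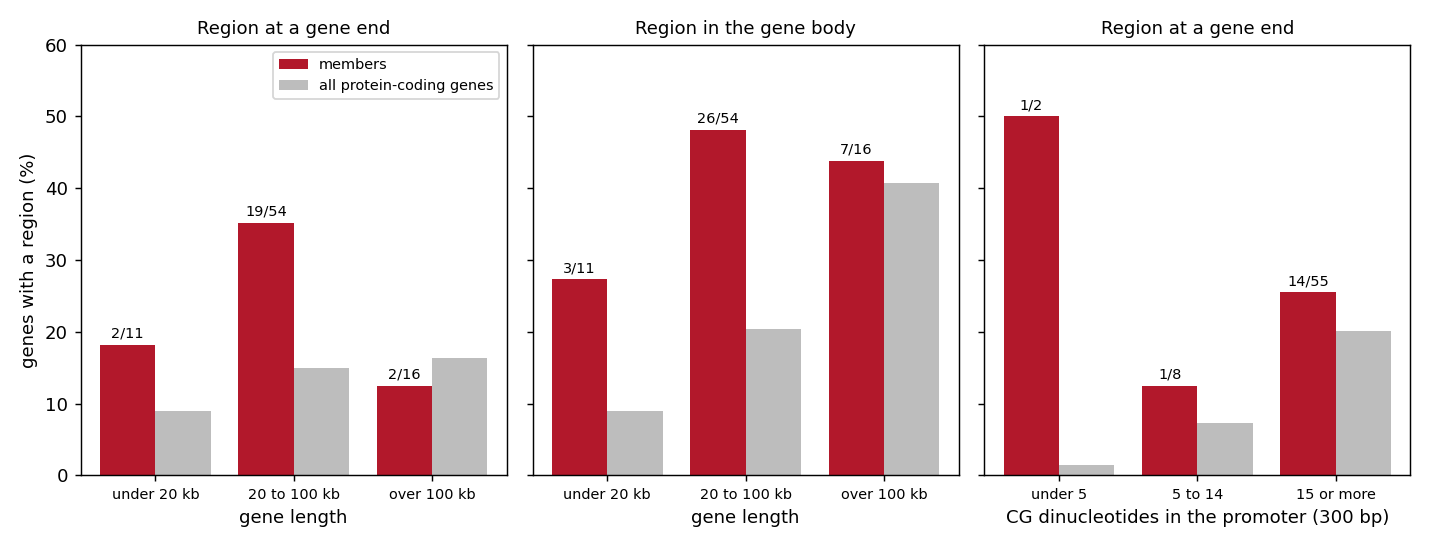
Bars compare the percentage of members (red, counts above the bars) and of all protein-coding genes (grey) with a fasting-enriched region. The panels show gene ends and gene bodies by gene length, and gene ends by the highest CG count among a gene's 300-base promoters. In the class with 15 or more CG the shares are 25.5% and 20.1%, and over 100 kb the members' share at ends is the lower.

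Short motifs were counted in 1 promoter per gene of 300 bases, on either strand, where some of the motifs can overlap each other. GGGCGG, the GC box bound by Sp and Klf factors, was present in 18 of the 20 members with a region within 1 kb of a start (90.0%) and in 33 of 45 without (73.3%). It was present in 75.7% of all protein-coding promoters with such a region and in 48.1% of all promoters. CCAAT was found in 5 of the 20 (25%) and in 21 of 45 (46.7%). Its shares were 32.8% of all promoters with such a region and 38.4% of all promoters. TATAAA was found in 0 of the 20 and in 3 of 45, beside 5.31% with a region and 12.9% of all. Ing1, among the 20, has TATAAA 28 bases before another of its listed starts. CGGAAG, the core of ETS factor sites, was found in 5 of 20 and 16 of 45, beside 31.6% with a region and 22.1% of all. GCGCATGC, part of the site of NRF1, was found in 3 of 20 and 3 of 45, beside 5.83% with a region and 3.65% of all. In the Smarca5 promoter printed above GCGCATGC lies 121 bases before the start, across the boundary of the region. CACGTG was in 1 of 20 and 1 of 45 (10.4% with a region, 8.05% of all). AAGATGG was in 1 of 20 and 7 of 45 (6.39% and 6.4%), and TGACGTCA in 0 of 20 and 2 of 45 (3.32% and 2.34%). Counts this small describe the letters in these windows only.

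Some regions belong as much to a neighbour as to the member. Of the 29 regions at members' ends, 7 (24.1%) were also within 1 kb of an end of another protein-coding gene, against 14.7% of the 2473 regions at all gene ends. In 6 members, Setd1b, Setd3, Kdm1b, Kdm2a, Kdm5a and Arid4b, every region at an end was shared in this way. Without shared regions 17 members (21.0%) kept a region at an end, against 8.85% of all genes.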

How the data were processed

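Libraries of immunoprecipitated H3K9bhb chromatin and of input DNA, 16 in all, were sequenced, and the authors deposited 2 lists of regions. The submitters' processing notes name Bowtie2, MACS2 and the build mm10. Per the file headers each region has a log-LR, used here as a score. Its cutoff, how depth was scaled and whether libraries were pooled are not stated in the labels or headers, and each can move the number of regions. Starts were read as counted from 0, since the smallest width is then 120 bp, and are printed from 1.

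Genes came from RefSeq (GRCm38.p6), without exons or introns. A region counted at a gene end if it overlapped 1 kb on either side by any base, and in the body if it overlapped the gene. Starts, strands and promoters (250 bases before to 50 after a start) came from a RefSeq promoter table. Members, role groups and lists were chosen with earlier results of these data known. Full values are given for each member with a region at an end and, of those with body regions only, for all 13, and the highest 2 for each partner group. The overlap step was tested on simulated regions. CG classes, length classes at gene ends and autosomes only were chosen after seeing the data. Python 3.11.15, numpy 2.4.6, pandas 2.3.3 and matplotlib 3.10.9 were used.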

Additional observations from a re-analysis of the deposited data

How the results depend on the processing

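The count of 23 members with a region at a gene end was 19 with a window of 500 bp (23.5% against 9.55% of all genes). With 3 kb it was 32 (39.5% against 14.7%). Both stricter overlap settings, such as the region's centre in the window, gave 21 (25.9% against 11.6%). Without shared regions it was 17 (21.0% against 8.85%), and on autosomes only 23 of 77 (29.9% against 12.6%). Counted at listed starts it was 20 of 65 (30.8% against 13.2%), which includes 5 members not among the 23. The count of 23 fell to 15 among regions at or above the median log-LR (18.5% against 6.08% of all genes). Above the upper quartile it was 5 (6.17% against 2.67%), and both settings remove regions by construction. The 36 members with a body region became 21 at the median (25.9% against 9.02%) and 4 above the upper quartile (4.94% against 4.36%). They became 16 when the region had to lie over 1 kb from both ends (19.8% against 7.24%). Tet2 and Setd2 had a region at an end in every setting run, while Kmt2e lost it in 5, and Arid1b and Kdm2a in 4 each. No paired analysis was possible because neither list gives values for single libraries, and leaving out replicates was not run for the same reason.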
